A study of Mus musculus with 16 samples.

Results

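Tyrosine and phenylalanine breakdown was followed through 7 liver genes, chosen by name from a table of 46078 genes: Tat, Hpd, Hgd, Gstz1, Fah, Pcbd1 and Qdpr. All 7 were among the 12910 genes that passed the low-count filter and were tested. Liver messenger RNA was sequenced from 16 C57BL/6 mice aged 22 weeks, made obese by diet and carrying fatty livers, in 4 groups of 4 with 1 library per animal. The Dicretin group received a co-agonist of the GLP1 and glucagon receptors, the Semaglutide group received a GLP1 receptor agonist, and the calorie-restricted group lost equivalent weight by reduced intake. The saline control group received vehicle and had the same background of obesity and fatty liver, but was not a group of equivalent weight loss. The labels used here give no dose, treatment length or sex, and no wild-type or lean group is among these samples. Libraries are named by group and animal number, and held 12.144 to 18.755 M counts assigned to genes.

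The pathway runs mainly in hepatocytes. Phenylalanine is hydroxylated to tyrosine with tetrahydrobiopterin as cofactor, and Pcbd1 and Qdpr return the spent cofactor to its active form. Tat then transfers the amino group of tyrosine, Hpd converts 4-hydroxyphenylpyruvate to homogentisate, Hgd opens the ring, Gstz1 isomerises the product, and Fah splits it into fumarate and acetoacetate. Loss of Fah, Tat, Hpd or Hgd underlies the human tyrosinaemias and alkaptonuria, and Tat is a classical gene induced in liver by fasting, glucagon and glucocorticoids.

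The 7 genes lie on 6 chromosomes. On GRCm38, GENCODE places Tat at chr8:109990437-109999803 (+), Hpd at chr5:123171807-123182727 (-), Hgd at chr16:37580153-37632020 (+) and Gstz1 at chr12:87147165-87164723 (+). Fah lies at chr7:84585159-84606722 (-), Pcbd1 at chr10:61089331-61094324 (+) and Qdpr at chr5:45434021-45450236 (-). The 250 bases before the transcription start, from RefSeq on GRCm38.p6, are shown for Tat, Hpd and Hgd, whose transcripts were higher under Dicretin, and for Pcbd1, whose transcript was lower. They are read 5′ to 3′ on the strand of the gene, at chr8:109990186-109990435 (+) for Tat, chr5:123182724-123182973 (-) for Hpd, chr16:37579903-37580152 (+) for Hgd and chr10:61089081-61089330 (+) for Pcbd1. Capitals mark the match to the C/EBP motif.
Tat: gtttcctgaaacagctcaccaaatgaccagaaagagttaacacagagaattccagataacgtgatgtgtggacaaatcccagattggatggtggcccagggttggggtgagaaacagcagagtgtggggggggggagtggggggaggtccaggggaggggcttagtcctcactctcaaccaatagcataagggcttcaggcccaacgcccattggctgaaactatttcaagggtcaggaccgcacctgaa
Hpd: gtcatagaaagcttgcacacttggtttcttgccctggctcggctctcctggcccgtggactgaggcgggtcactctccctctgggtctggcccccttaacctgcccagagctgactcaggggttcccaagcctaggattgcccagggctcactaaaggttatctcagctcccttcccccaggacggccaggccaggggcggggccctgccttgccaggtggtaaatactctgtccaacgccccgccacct
Hgd: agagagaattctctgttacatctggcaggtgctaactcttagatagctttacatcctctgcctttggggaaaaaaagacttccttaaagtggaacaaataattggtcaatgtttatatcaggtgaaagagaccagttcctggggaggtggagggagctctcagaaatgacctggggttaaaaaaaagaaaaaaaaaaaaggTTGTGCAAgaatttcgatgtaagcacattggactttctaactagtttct
Pcbd1: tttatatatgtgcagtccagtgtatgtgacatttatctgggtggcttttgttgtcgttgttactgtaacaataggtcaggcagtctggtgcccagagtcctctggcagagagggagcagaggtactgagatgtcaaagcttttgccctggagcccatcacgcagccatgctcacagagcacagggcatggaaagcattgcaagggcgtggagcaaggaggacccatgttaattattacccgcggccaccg

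Short motifs were searched on both strands of these windows and of all 32817 mouse promoter windows of the same length. The cyclic AMP response element TGACGTCA was in none of the 7 genes' windows and in 1.55% of all windows. Its shorter core TGACG, which the full element contains, was found in 1 member, Gstz1, 47 to 43 bases before the start, and in 17.7% of all windows. The C/EBP motif TTGCNNAA was found in Hgd, 49 to 42 bases before the start, and in Qdpr, 77 to 70 bases before it, against 9.57% of all windows. The glucocorticoid receptor core TGTTCT was in no member's window and in 16.1% of all windows. The windows differed in base composition, with a GC content of 53.6% for Tat, 62.8% for Hpd, 38.8% for Hgd and 51.6% for Pcbd1, against a median of 52.4% over all windows. A match describes letters in these windows and is not a measured binding site.

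Under Dicretin the first 3 enzymes of tyrosine breakdown rose, the last 2 did not pass the test, and of the pterin-recycling pair Pcbd1 fell while Qdpr did not pass. Against saline, 3 of 7 members rose (background 17.5% of genes tested) and 1 of 7 fell (background 19.2%), with a median log2 fold change of 0.39 over the members and -0.005 over all genes tested. Under Semaglutide 0 members passed in either direction. Under calorie restriction Tat rose and the other 6 did not pass. In whole liver, fewer cells of a type and less RNA per cell cannot be told apart, so each level is that of the tissue. Levels are given in CPM (counts scaled to library totals adjusted by edgeR's TMM factors), means ± SD (n = 4), and log2 fold changes ± SE. The factors differ between libraries, so a CPM value is not the count scaled to the library total alone. Each adjusted p was obtained with the quasi-likelihood test of edgeR and adjusted by Benjamini-Hochberg over all genes tested. The 6 comparisons share groups, so their values for a gene are not separate results.

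Tat, tyrosine aminotransferase, takes the first and regulated step. Its level was 3713, 4889.6, 4749 and 4599.8 CPM in Dicretin libraries 14, 23, 64 and 65. It was 484, 687, 332 and 337 CPM in Semaglutide libraries 11, 15, 31 and 51, 1372, 1472, 1063 and 860.0 CPM in calorie-restricted libraries 7, 8, 52 and 79, and 352, 569.5, 537 and 651 CPM in saline libraries 35, 50, 73 and 78. Every Dicretin library was higher than every other library, every calorie-restricted library was higher than every Semaglutide and saline library, and the Semaglutide and saline libraries overlapped. The means were 4488 ± 529.7 CPM in Dicretin, 460.0 ± 167 CPM in Semaglutide, 1192 ± 282 CPM in calorie restriction and 528 ± 126 CPM in saline.

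Tat rose by 3.09 ± 0.26 under Dicretin against saline, 8.51-fold (adjusted p = 6.36e-08). It rose by 1.18 ± 0.24 under calorie restriction against saline, 2.26-fold (adjusted p = 0.00572). Dicretin stood 1.91 ± 0.24 above calorie restriction, the group of equivalent weight loss, 3.77-fold (adjusted p = 1.18e-05). Semaglutide against saline gave -0.20 ± 0.24 (adjusted p = 0.694), with a 95% interval of -0.70 to 0.30. Semaglutide against calorie restriction gave -1.37 ± 0.24, 0.386 of the calorie-restricted level (adjusted p = 0.00221). Dicretin was above Semaglutide by 3.29 ± 0.26, 9.76-fold (adjusted p = 3.24e-08). All of these calls for Tat were kept under every alternative tried.

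Hpd, 4-hydroxyphenylpyruvate dioxygenase, is the enzyme blocked by nitisinone. It had 2795, 5261, 4889.9 and 7437 CPM in Dicretin libraries 14, 23, 64 and 65. It had 2411, 2506, 2175 and 2429 CPM in Semaglutide libraries 11, 15, 31 and 51, 2223, 2905, 2497 and 2371 CPM in calorie-restricted libraries 7, 8, 52 and 79, and 2129, 2165, 2921 and 3038 CPM in saline libraries 35, 50, 73 and 78. Dicretin 14 lay within the saline and calorie-restricted ranges, while the other 3 Dicretin libraries were above every library of the other groups. The means were 5096 ± 1901 CPM in Dicretin, 2380.3 ± 143 CPM in Semaglutide, 2499 ± 293 CPM in calorie restriction and 2563 ± 483 CPM in saline.

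Hpd rose by 0.99 ± 0.22 under Dicretin against saline, 1.99-fold (adjusted p = 0.00171). It was 1.03 ± 0.22 above calorie restriction (adjusted p = 0.00166) and 1.10 ± 0.22 above Semaglutide (adjusted p = 0.000854). Against saline the difference was -0.11 under Semaglutide (95% interval -0.56 to 0.35) and -0.04 under calorie restriction (95% interval -0.49 to 0.42), and neither passed. Hpd spans part of Psmd9, a proteasome assembly gene on the opposite strand, with 0 shared exon bases in the longest pairing. Psmd9 averaged 129 CPM in Dicretin and 46.8 CPM in saline, far below Hpd, and rose by 1.46 (adjusted p = 2.85e-07). The strand setting of the counting is not given in the sources used here.

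Hgd, homogentisate dioxygenase, opens the aromatic ring. It had 874, 1273, 1506 and 1417 CPM in Dicretin libraries 14, 23, 64 and 65. It had 621, 505, 465 and 581 CPM in Semaglutide libraries 11, 15, 31 and 51, 609, 754, 579 and 569 CPM in calorie-restricted libraries 7, 8, 52 and 79, and 648, 571, 698 and 702 CPM in saline libraries 35, 50, 73 and 78. All 4 Dicretin libraries were above the 12 others, Dicretin 14 being the lowest of them, and the other 3 groups overlapped. Hgd averaged 1267 ± 279 CPM in Dicretin, 543 ± 70.9 CPM in Semaglutide, 628 ± 85.9 CPM in calorie restriction and 655 ± 61.3 CPM in saline.

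Hgd rose by 0.95 ± 0.17 under Dicretin against saline, 1.94-fold (adjusted p = 0.000248). It was 1.01 ± 0.17 above calorie restriction (adjusted p = 0.000186) and 1.22 ± 0.17 above Semaglutide (adjusted p = 2.55e-05). In the groups without Dicretin, Hgd did not pass, with -0.27 under Semaglutide (95% interval -0.62 to 0.08) and -0.06 under calorie restriction (95% interval -0.41 to 0.29) against saline.

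Gstz1, maleylacetoacetate isomerase and a glutathione transferase of the zeta class, had 541, 969, 849 and 1058 CPM in Dicretin libraries 14, 23, 64 and 65. It had 1371, 965, 928 and 859.8 CPM in Semaglutide libraries 11, 15, 31 and 51, 793, 1032, 910.4 and 823 CPM in calorie-restricted libraries 7, 8, 52 and 79, and 963, 1016, 1032 and 1146 CPM in saline libraries 35, 50, 73 and 78. The groups overlapped, with the lowest value in Dicretin 14 and the highest in Semaglutide 11. Gstz1 averaged 854 ± 226 CPM in Dicretin, 1031 ± 231 CPM in Semaglutide, 889.6 ± 108 CPM in calorie restriction and 1039 ± 77.1 CPM in saline. Dicretin against saline gave -0.28 ± 0.19 (adjusted p = 0.26), with a 95% interval of -0.68 to 0.12 that leaves out a rise of the size seen in Hgd. Semaglutide against saline gave -0.01 (95% interval -0.41 to 0.39) and calorie restriction against saline -0.22 (95% interval -0.62 to 0.17). Gstz1 shares up to 338 exon bases with Pomt2 on the opposite strand, which had 169 to 354 counts per library and did not pass in any comparison.

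Fah, fumarylacetoacetate hydrolase, ends the pathway. It had 426, 685, 611 and 627 CPM in Dicretin libraries 14, 23, 64 and 65. It had 665, 676, 635 and 706 CPM in Semaglutide libraries 11, 15, 31 and 51, 656, 817, 596 and 653 CPM in calorie-restricted libraries 7, 8, 52 and 79, and 675, 704, 819.5 and 757 CPM in saline libraries 35, 50, 73 and 78. Dicretin 23 lay within the saline range and the other 3 Dicretin libraries were below it. Fah averaged 587 ± 112 CPM in Dicretin, 670.4 ± 29.1 CPM in Semaglutide, 681 ± 94.9 CPM in calorie restriction and 739 ± 63.4 CPM in saline. Dicretin against saline gave -0.33 ± 0.15, with an unadjusted p of 0.0403 and an adjusted p of 0.0917 in edgeR's quasi-likelihood test, and did not pass. Semaglutide gave -0.14 (95% interval -0.46 to 0.17) and calorie restriction -0.12 (95% interval -0.43 to 0.20) against saline.

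**Figure D1:**
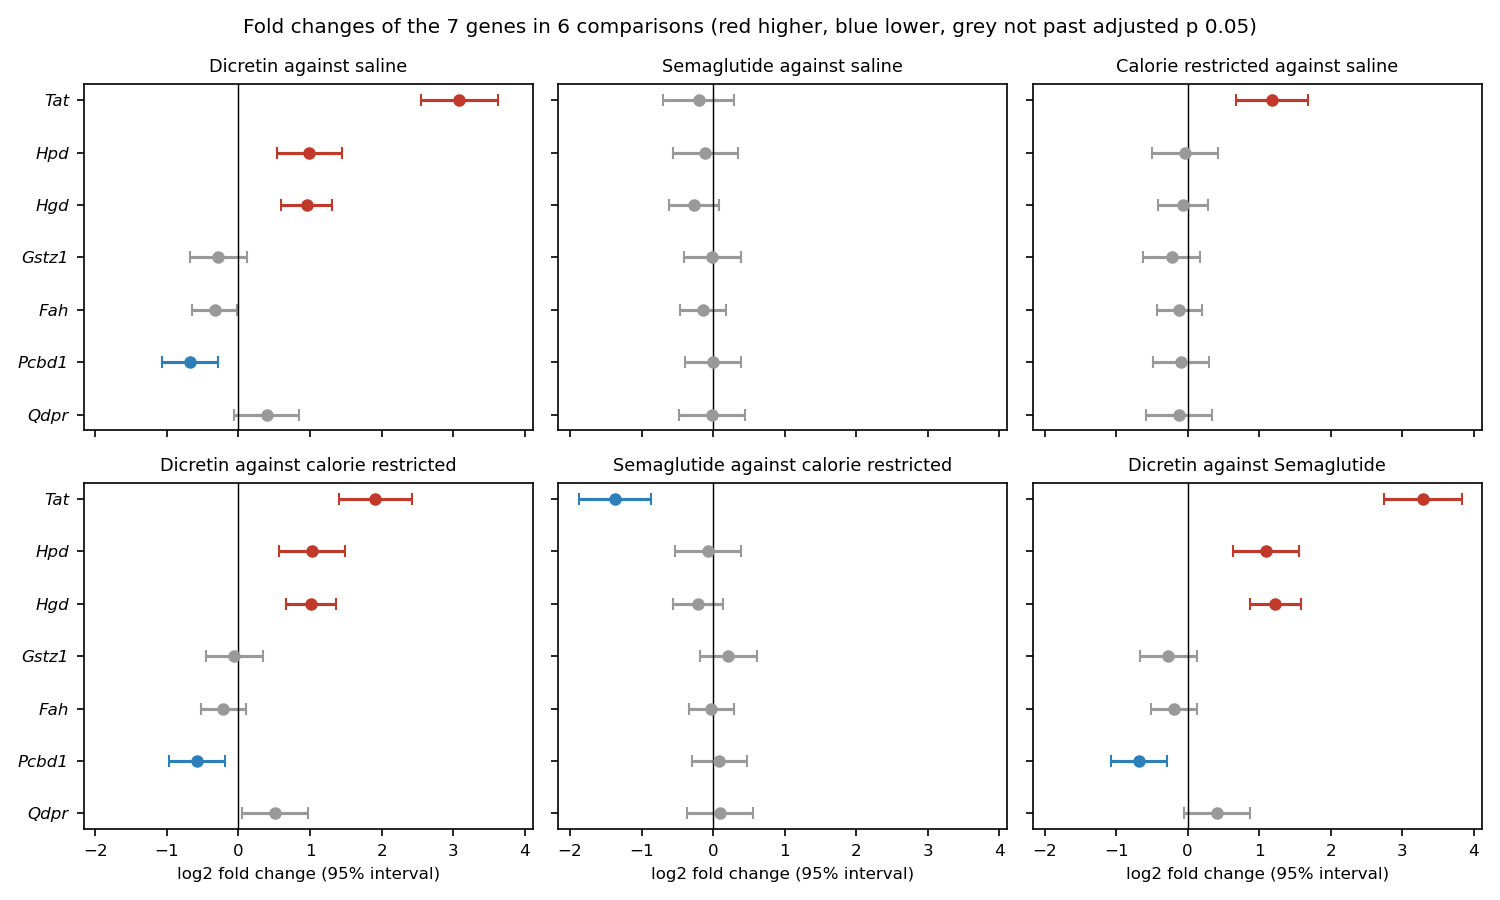
Log2 fold changes of the 7 genes in the 6 comparisons, with 95% confidence intervals from edgeR's quasi-likelihood fit. Filled points passed at an adjusted p under 0.05, among them Tat at 3.09 and Pcbd1 at -0.68 in Dicretin against saline.

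Pcbd1, pterin-4a-carbinolamine dehydratase, carries out the first step of cofactor recycling. It had 174, 242, 211 and 202 CPM in Dicretin libraries 14, 23, 64 and 65. It had 502, 276, 287 and 258 CPM in Semaglutide libraries 11, 15, 31 and 51, 278, 373, 294 and 298 CPM in calorie-restricted libraries 7, 8, 52 and 79, and 305, 324, 349 and 348 CPM in saline libraries 35, 50, 73 and 78. Every Dicretin library was below every other library, and Semaglutide 11 stood far above the other 3 of its group. The means were 207 ± 28 CPM in Dicretin, 331 ± 115 CPM in Semaglutide, 311 ± 42.5 CPM in calorie restriction and 331 ± 21.2 CPM in saline.

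Pcbd1 fell by 0.68 ± 0.19 on the log2 scale under Dicretin against saline, to 0.626 of the saline level (adjusted p = 0.00833). It was also lower in Dicretin than in calorie restriction, by -0.58 ± 0.19 (adjusted p = 0.0231), and than in Semaglutide, by -0.67 ± 0.19 (adjusted p = 0.00978). The call against calorie restriction was lost without Dicretin 14 (adjusted p = 0.0564) or without calorie-restricted 8 (adjusted p = 0.0789). The call against Semaglutide was lost in a fit of only the 2 groups compared (adjusted p = 0.0629). It was also lost when Semaglutide 11 and Dicretin 14 were left out together, an alternative chosen after the data had been seen, with a log2 fold change of -0.32 in place of -0.67 (adjusted p = 0.0531). Against saline, Pcbd1 gave 0.00 ± 0.19 under Semaglutide (95% interval -0.39 to 0.39) and -0.09 ± 0.19 under calorie restriction (95% interval -0.48 to 0.30).

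Qdpr, dihydropteridine reductase, completes the recycling. It had 315, 539, 519 and 384 CPM in Dicretin libraries 14, 23, 64 and 65. It had 533, 282, 258 and 252 CPM in Semaglutide libraries 11, 15, 31 and 51, 322, 326, 259 and 326 CPM in calorie-restricted libraries 7, 8, 52 and 79, and 303, 329, 334 and 374 CPM in saline libraries 35, 50, 73 and 78. Libraries 23, 64 and 65 of Dicretin were above every saline and calorie-restricted library, Dicretin 14 was not, and Semaglutide 11 was as high as the top Dicretin libraries. The means were 439 ± 108 CPM in Dicretin, 331 ± 135 CPM in Semaglutide, 308 ± 32.9 CPM in calorie restriction and 335 ± 29.6 CPM in saline.

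Dicretin against saline gave 0.39 ± 0.22 for Qdpr (adjusted p = 0.174), with a 95% interval of -0.07 to 0.85. The difference was 0.51 ± 0.22 against calorie restriction (adjusted p = 0.0853) and 0.41 ± 0.22 against Semaglutide (adjusted p = 0.17). Leaving out single libraries changed these calls, also where a library only shares the estimate of spread. Without Semaglutide 11, Qdpr passed against saline (adjusted p = 0.0489), against calorie restriction (adjusted p = 0.0153) and against Semaglutide, where the difference became 0.74 (adjusted p = 0.00278). Without Dicretin 14 alone, Qdpr passed against calorie restriction, at 0.64 (adjusted p = 0.0318). With both left out, the 3 differences were 0.52, 0.64 and 0.87 (adjusted p = 0.00331, 0.000762 and 0.000121). Against saline, Qdpr gave -0.02 under Semaglutide (95% interval -0.48 to 0.44) and -0.12 under calorie restriction (95% interval -0.58 to 0.34).

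For Dicretin against calorie restriction, 3 of 7 members were higher (background 15.1%), Tat, Hpd and Hgd, and 1 of 7 was lower (background 16.2%), Pcbd1, with a member median of 0.51. For Dicretin against Semaglutide, Tat, Hpd and Hgd were again the 3 of 7 that were higher (background 14.8%) and Pcbd1 the 1 of 7 that was lower (background 17.1%), with a member median of 0.41. For calorie restriction against saline, 1 of 7 rose (background 3.42%) and 0 of 7 fell (background 4.11%), with a member median of -0.09. Semaglutide against calorie restriction had 0 of 7 higher (background 3.05%) and 1 of 7 lower (background 3.07%), which was Tat. For Semaglutide against saline 0 of 7 rose (background 1.56%) and 0 of 7 fell (background 2.62%) in edgeR's quasi-likelihood test. In that comparison 0 of 7 had an unadjusted p under 0.05, the smallest was 0.122 for Hgd, and DESeq2's Wald test and limma-voom also called 0. The median over all genes tested lay between -0.014 and 0.003 in the 6 comparisons.

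Within a library, the ratio of neighbouring steps shows whether transcripts moved unequally. The ratio of Tat to Hpd CPM had a median of 0.950 in Dicretin, 0.177 in Semaglutide, 0.466 in calorie restriction and 0.199 in saline. In Dicretin it was 1.33, 0.929, 0.971 and 0.618 in libraries 14, 23, 64 and 65, whereas the saline libraries lay between 0.165 and 0.263. Dicretin 14, the lowest Dicretin library for both genes, had the highest ratio. Dicretin 65, at 0.6185, lay barely above calorie-restricted 7, at 0.6174. The ratio of Hpd to Hgd overlapped between all groups, with medians of 3.69, 4.43, 4.01 and 3.99 in Dicretin, Semaglutide, calorie restriction and saline.

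The ratio of Hgd to Gstz1 had a median of 1.48 in Dicretin (1.31 to 1.77), 0.512 in Semaglutide, 0.711 in calorie restriction and 0.643 in saline (0.562 to 0.677). Hgd thus exceeded Gstz1 in counts in every Dicretin library and in no library of the other groups. The ratio of Gstz1 to Fah overlapped between all groups, with medians of 1.40, 1.45, 1.26 and 1.43 in Dicretin, Semaglutide, calorie restriction and saline. The ratio of Pcbd1 to Qdpr was 0.488 in Dicretin (0.406 to 0.553), 1.003 in Semaglutide, 1.02 in calorie restriction and 0.996 in saline (0.929 to 1.04). Semaglutide 11, which stood apart for Pcbd1 and for Qdpr, lay at 0.942 in this ratio, within the range of the saline libraries.

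Of 30 ratio differences, 11 had groups that did not overlap and reached the smallest p that an exact two-sided permutation test of 4 against 4 can give, 0.0286. None passed after Benjamini-Hochberg adjustment over the 30 (adjusted p = 0.0779 for each of the 11). With p at this floor, the adjusted value depends only on how many of the 30 reach it. Not passing is therefore no evidence that the ratios were equal. The 11 share genes and groups, so they are not separate results. The share of such differences among other pairs of genes was not computed. In log2 units the mean difference for Tat over Hpd was 2.19 for Dicretin against saline, 1.20 for calorie restriction against saline and 0.99 for Dicretin against calorie restriction. It was -1.34 for Semaglutide against calorie restriction and 2.33 for Dicretin against Semaglutide. For Hgd over Gstz1 it was 1.25 for Dicretin against saline, 1.09 against calorie restriction and 1.49 against Semaglutide. For Pcbd1 over Qdpr it was -1.05 against saline, -1.07 against calorie restriction and -1.08 against Semaglutide.

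**Figure D2:**
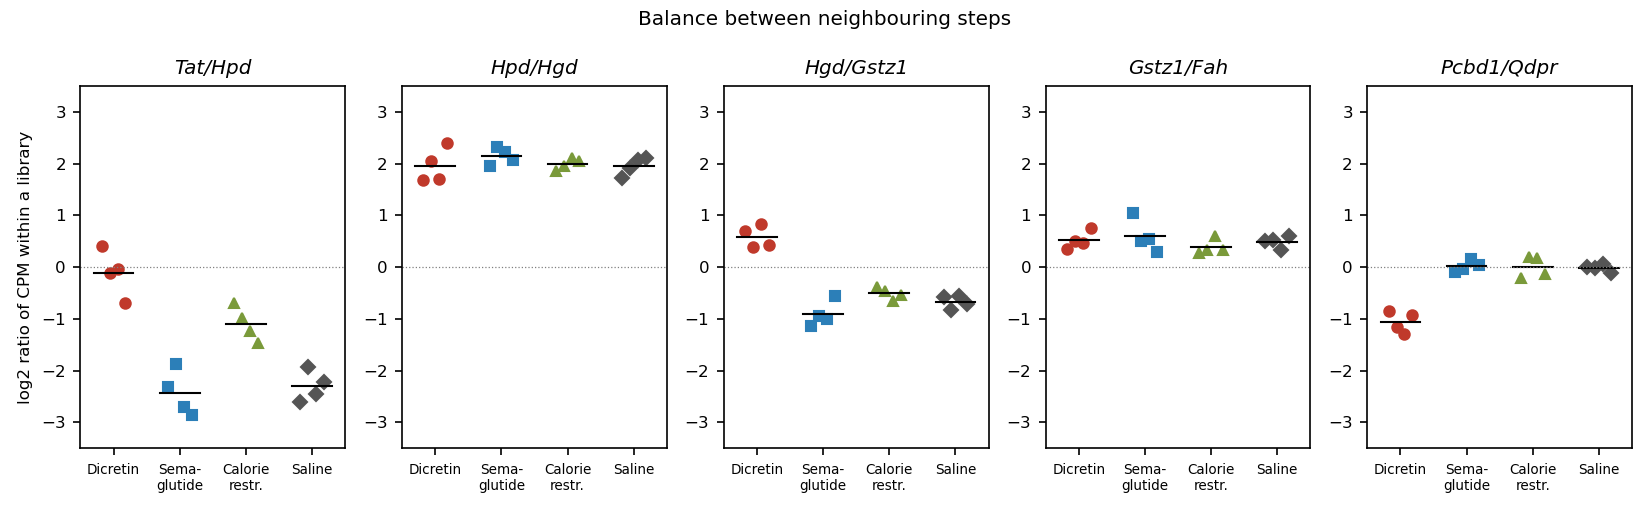
Ratios of CPM between neighbouring steps in each library (log axis), with 1 point per library and a bar at the group median (n = 4). Dicretin libraries lie apart from the other 3 groups for Tat over Hpd, Hgd over Gstz1 and Pcbd1 over Qdpr, and overlap them for Hpd over Hgd and Gstz1 over Fah.

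Between genes, levels were compared per kilobase of exon (CPM per kb). The length was that of all annotated exons merged, 5088 bases for Gstz1 and 817 to 2615 bases for the other members. Hpd was the highest member in every group, with a mean of 2395 in Dicretin, 1119 in Semaglutide, 1174 in calorie restriction and 1204.5 in saline. Tat was next to it in Dicretin at 1866 and in calorie restriction at 496, but ranked 6 of 7 in Semaglutide at 191 and 5 of 7 in saline at 219. In Dicretin the ranges of Hpd and Tat overlapped, both Tat and Hgd (485) were clear of the next gene, and Fah (265), Pcbd1 (254) and Qdpr (246) overlapped. In saline Pcbd1 followed Hpd at 406, then came Fah at 333 and Hgd at 250, with no overlap between these neighbours, whereas Hgd, Tat and Gstz1 (204) each overlapped the next. Qdpr was last in saline at 187 and Gstz1 was last in Dicretin at 168. The rank of Gstz1 depends on its length. In mean CPM it stood above Fah, Pcbd1 and Qdpr, at 854 in Dicretin and 1039 in saline. Together the 7 genes summed to 8839 to 15725 CPM in Dicretin libraries and 5082 to 6587 CPM in Semaglutide. Their sum was 5901 to 7680 CPM in calorie restriction and 5375 to 7016 CPM in saline.

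**Figure D3:**
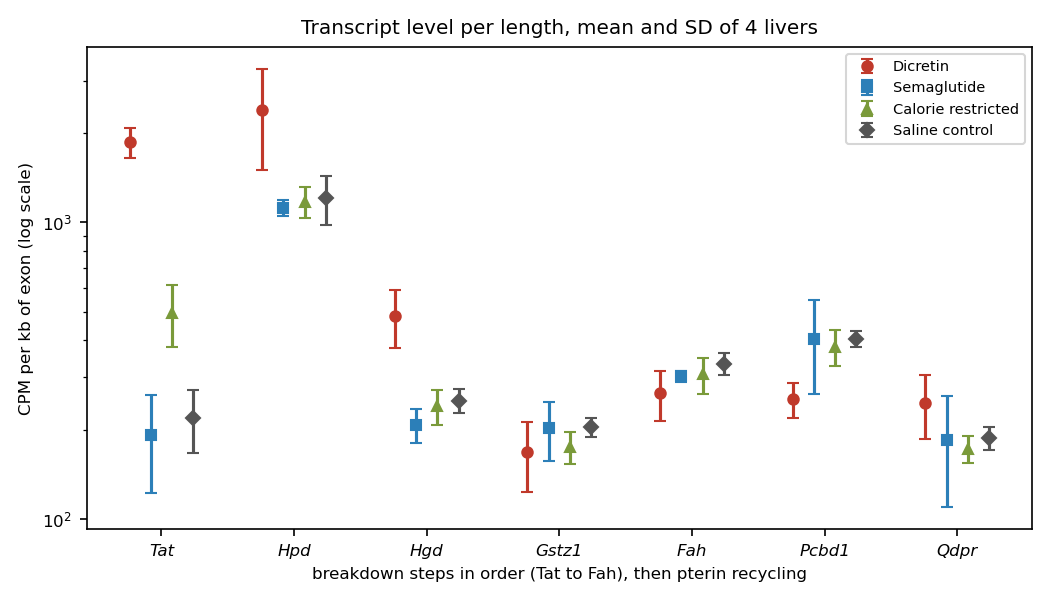
Mean level of each gene per kilobase of exon in each group (CPM per kb, log axis), with bars of 1 SD (n = 4). Tat ranks 2 of 7 in Dicretin, at 1866, and 5 of 7 in saline, at 219.

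Single libraries shifted several members at once. Dicretin 14 was below its group's mean for all 7 genes, with a median log2 deviation of -0.44, and Dicretin 23 and Dicretin 64 were above it for all 7. Semaglutide 11 was above its group's mean for 6 of 7 (median 0.20), the exception being Fah, and Semaglutide 31 was below it for all 7. Calorie-restricted 8 and saline 78 were above their groups' means for all 7 (medians 0.27 and 0.14), and saline 35 was below for all 7 (median -0.13). The source of these shifts, including any part of the TMM scaling in them, was not tested.

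For each member, the genes outside the pathway with the most similar pattern were those with the highest Pearson correlation of log2 CPM over the 16 libraries, among 7114 genes of at least 10 CPM. Differences between groups can raise such an r, so it was also computed after subtracting each group's mean. Both describe these libraries only. For Tat they were Acmsd (r = 0.969), an enzyme of tryptophan breakdown, Sdc1 (r = 0.966), a cell-surface proteoglycan, and Slc25a15 (r = 0.960), the mitochondrial ornithine carrier. For Hpd they were Agt (r = 0.943), which encodes angiotensinogen, Ass1 (r = 0.925), a urea cycle enzyme, and Gls2 (r = 0.922), the liver glutaminase. For Hgd, Ass1 and Nnmt, nicotinamide N-methyltransferase, each had r = 0.973. Of these, Acmsd rose by 3.25 in Dicretin and by 1.37 in calorie restriction against saline, Sdc1 by 2.45 and 1.005, and Slc25a15 by 2.71 and 0.94, and all 6 changes passed. These genes were chosen for following Tat over the same libraries, so changes like those of Tat follow from the choice. After subtracting group means, r with Tat was 0.473 for Acmsd, 0.211 for Sdc1 and -0.009 for Slc25a15. With Hpd it was 0.849 for Agt, 0.835 for Ass1 and 0.747 for Gls2. With Hgd it was 0.862 for Ass1 and 0.861 for Nnmt.

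The members not called higher under Dicretin had other companions. These companions were chosen over the same libraries, so their changes between groups follow in part from the choice. Gstz1 was most like Apopt1 (r = 0.959), Mcee (r = 0.936) and Bola3 (r = 0.927), all with mitochondrial products, and none of the 3 passed in Dicretin against saline. Fah was most like Cyp4f15 (r = 0.926), Stap2 (r = 0.886) and Dcxr (r = 0.881). Pcbd1 was most like Pts (r = 0.954), a gene of tetrahydrobiopterin synthesis, Bphl (r = 0.952) and Spp2 (r = 0.944), and all 3 fell in Dicretin against saline, by 0.78, 0.83 and 1.13. Qdpr was most like Mdh1 (r = 0.924), cytosolic malate dehydrogenase, and the oxidative phosphorylation genes Atp5d (r = 0.896) and Ndufv1 (r = 0.894), of which only Atp5d passed in Dicretin against saline, at 0.52.

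Around the pathway, other enzymes of tyrosine and aromatic amino acids showed 4 of 10 tested genes higher (background 17.5%) and 1 of 10 lower (background 19.2%) in Dicretin against saline, with a median of 0.12. Among the 4, Tdo2, which opens the ring of tryptophan, rose by 0.63 (adjusted p = 0.0347) and lost its call in 8 of 25 alternatives (adjusted p up to 0.12). Got1, a cytosolic aspartate aminotransferase, averaged 2264 ± 277 CPM in Dicretin, 158 ± 54.4 CPM in Semaglutide, 259 ± 93.9 CPM in calorie restriction and 229.5 ± 62.2 CPM in saline, a rise of 3.30 against saline (adjusted p = 1.03e-07). Ddc, aromatic L-amino acid decarboxylase, averaged 125 ± 9.52 CPM in Dicretin, 16.5 ± 3.5 CPM in Semaglutide, 76.9 ± 7.46 CPM in calorie restriction and 28.1 ± 3.26 CPM in saline. Ddc rose by 2.15 in Dicretin (adjusted p = 9.65e-09) and by 1.45 in calorie restriction (adjusted p = 1.09e-05), and fell by 0.77 in Semaglutide (adjusted p = 0.00537), each against saline. Its order of groups, Dicretin above calorie restriction above saline, was that of Tat. Kyat3, a kynurenine aminotransferase, rose by 1.48 in Dicretin (adjusted p = 1.16e-05), and Il4i1, an amino acid oxidase with group means of at most 1.7 CPM, fell by 1.83 (adjusted p = 0.0202), a call lost without Dicretin 14, Dicretin 23, saline 35 or saline 73 (adjusted p up to 0.0707).

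Genes of tetrahydrobiopterin synthesis and salvage showed 2 of 9 higher (background 17.5%) and 3 of 9 lower (background 19.2%) in Dicretin against saline, with a median of 0.07. The share that was higher is near the background. Cbr1, a carbonyl reductase of the salvage route, rose by 1.98 (adjusted p = 1.16e-06), and Dnajc12, the co-chaperone of the aromatic amino acid hydroxylases, rose by 1.29 (adjusted p = 0.000489). Pts, which makes an intermediate of the cofactor, fell by 0.78 (adjusted p = 0.0092), in the same direction as Pcbd1. Akr1c6, an aldo-keto reductase, fell by 0.60 (adjusted p = 0.0265) and lost its call in 6 of 25 alternatives (adjusted p up to 0.069). Dnajc12 also rose in Semaglutide, by 1.16 (adjusted p = 0.00993), where Pcbd1 and Qdpr gave 0.00 and -0.02.

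Among 8 carriers of aromatic and other neutral amino acids, 3 were higher (background 17.5%) and 0 lower (background 19.2%) in Dicretin against saline. Their median was 0.31. Slc3a2, the heavy chain of the large neutral amino acid carriers, rose by 2.16 (adjusted p = 8.69e-09), the neutral amino acid carrier Slc38a2 by 2.19 (adjusted p = 1.53e-07), and the aromatic amino acid carrier Slc16a10 by 1.87 (adjusted p = 7.41e-07). Slc7a5, a light chain that pairs with Slc3a2, gave 0.85 and did not pass (adjusted p = 0.1). Users of fumarate and acetoacetate showed 2 of 8 higher (background 17.5%) and 4 of 8 lower (background 19.2%), with a median of -0.19. The 2 that rose handle fumarate and malate, Fh1 by 2.34 (adjusted p = 3.5e-08) and Mdh2 by 1.17 (adjusted p = 1.22e-06). Among those that fell, Aacs, which activates acetoacetate in the cytosol, fell by 4.09 (adjusted p = 6.15e-05) and Bdh1, which reduces it in mitochondria, by 0.92 (adjusted p = 0.000272).

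Of 12 transcription factors and coactivators of hepatocyte amino acid enzymes, 4 rose (background 17.5%) and 0 fell (background 19.2%) in Dicretin against saline, with a median of 0.15. With Semaglutide 11 and Dicretin 14 left out, 4 rose and 2 fell. Ppargc1a, a coactivator induced by fasting, rose by 2.83 (adjusted p = 1.08e-09), Crem, a cyclic AMP-responsive factor, by 3.56 (adjusted p = 1.37e-09), Hnf4a by 0.82 (adjusted p = 0.00274) and Creb1 by 0.48 (adjusted p = 0.0133). Crem and Creb1 also rose in calorie restriction against saline, by 1.11 (adjusted p = 0.00194) and 0.53 (adjusted p = 0.0302). The Creb1 call in calorie restriction was lost in 8 of 25 alternatives (adjusted p up to 0.0896).

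In Semaglutide against saline, 1 of 10 other aromatic amino acid enzymes was higher (Kyat1) and 1 of 10 lower (Ddc), 2 of 9 tetrahydrobiopterin genes were higher (Dnajc12 and Akr1c6), and 0 genes passed among the carriers, the users of the end products and the transcription factors (background 1.56% higher and 2.62% lower). The Kyat1 call was lost in 3 of 25 alternatives (adjusted p up to 0.0973) and the Akr1c6 call in 4 (adjusted p up to 0.0738). In calorie restriction against saline, 1 of 10 other enzymes was higher (Ddc), 1 of 8 carriers lower (Slc43a1), 2 of 12 transcription factors higher (Crem and Creb1) and 1 of 12 lower (Cebpb), against a background of 3.42% higher and 4.11% lower. The Cebpb call was lost in 4 of 25 alternatives (adjusted p up to 0.071). In Semaglutide against calorie restriction, 1 of 10 other enzymes was lower (Ddc), 1 of 9 tetrahydrobiopterin genes higher (Gch1) and 1 of 8 carriers higher (Slc43a1), against a background of 3.05% higher and 3.07% lower, and the Slc43a1 call was lost in 15 of 25 alternatives (adjusted p up to 0.153). The lists were written with earlier results of these data known.

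The livers carried the markers of the tissue. The summed level of 4 hepatocyte markers (Alb, Ttr, Apoa1 and Serpina1a) ranged over 68200 to 87700 CPM in Dicretin, 110000 to 140000 CPM in Semaglutide, 118000 to 137000 CPM in calorie restriction and 89800 to 110000 CPM in saline, with none at 0 in any library. The sum was therefore lower in Dicretin, where Tat, Hpd and Hgd were higher and Pcbd1 lower. Alb made up most of the sum, with a mean of 59616 CPM in Dicretin and 81648 CPM in saline. Of the 4, Alb fell by 0.45 (adjusted p = 0.0222) and Serpina1a rose by 0.63 (adjusted p = 0.015) in Dicretin against saline. Ttr and Apoa1 did not pass there (adjusted p = 0.468 and 0.106). The 5 macrophage markers summed to 137 to 434 CPM in Dicretin and 67.4 to 220 CPM in Semaglutide. They summed to 46.4 to 158 CPM in calorie restriction and 137 to 207 CPM in saline. In Dicretin against saline 0 of 5 macrophage markers passed (background 17.5% higher and 19.2% lower). In Dicretin against calorie restriction 4 of 5 macrophage markers were higher (background 15.1%) and 1 of 4 hepatocyte markers was lower (background 16.2%). In Dicretin against Semaglutide 1 of 5 macrophage markers was higher (background 14.8%) and 3 of 4 hepatocyte markers were lower (background 17.1%). In Dicretin against saline 1 of 5 stellate cell markers and 1 of 5 cholangiocyte markers were lower (background 19.2%). Of the endothelial markers 1 of 5 was higher (background 17.5%), and 0 of 4 leukocyte markers passed. Each share of 1 of 5 is near its background. The part of cell composition in the members' differences was not tested. Markers of kidney, the other main site of this pathway, were at or near 0, at most 0.225 CPM in sum.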

How the data were processed

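Liver RNA from 16 animals was sequenced as poly(A)-selected directional libraries, per the labels' protocols. Alignment and counting used TopHat2 2.1.1 and featureCounts, with mm10 as the build, per the submitters' processing notes. The strand setting and annotation release are not given in the sources used here. The deposited values were raw counts per gene without normalization, and each column was matched to its sample by animal number. Counts totalled 12.144 to 18.755 M per library.

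Identifiers were given symbols and positions through GENCODE M21 (45229 of 46078 matched). In R 4.3.3, edgeR 4.0.16 with filterByExpr, TMM factors and a robust quasi-likelihood fit of 4 group means over all 16 libraries tested 12910 genes (common biological coefficient of variation 0.24), without adjustment across the 6 comparisons. Genes were called at an adjusted p under 0.05. P-values measure the spread between these animals. Log2 CPM for correlations used a prior count of 2. Step ratios of CPM were tested by exact two-sided permutation (scipy 1.17.1). Promoter windows of 250 bases came from RefSeq on GRCm38.p6.

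Alternatives were DESeq2 1.42.0 size factors and Wald test, upper quartile factors, limma-voom 3.58.1, no filter, a filter of 1 CPM in 4 libraries, removal of the 20 most abundant genes, fits of the compared pair alone, and each library left out. Leaving out Semaglutide 11 and Dicretin 14 together was added after seeing the data. All members are described. From each list up to 4 genes with the smallest p in Dicretin against saline are named, besides those called in other comparisons, which were named after their values were seen. For each member up to 3 similar genes of at least 10 CPM are named, leaving out predicted genes and pseudogenes. Not every gene of the pathway and lists, nor every motif searched, is reported here. The members and lists were chosen with earlier results of these data known. The main fit was tested on simulated counts for Dicretin against saline, with 200 of 12910 genes changed. Of simulated log2 changes of size 1, 48% were called with the right sign, and of size 2, 97%. Of all calls in the simulation, 5.84% were false. In the data 4734 genes were called in this comparison. The adjustment is stricter where fewer genes change, so the simulated shares do not carry over to these data.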

Additional observations from a re-analysis of the deposited data

Results flagged for a closer look

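A single library stood apart from its group in 3 of 48 sets of 4 values examined (28 of member levels and 20 of step ratios), and chance alone marks about 1 in 20 such sets. Pcbd1 was 501.9 CPM in Semaglutide 11, against 257.8 to 287.3 CPM in the other 3 Semaglutide libraries. Qdpr was 532.6 CPM in Semaglutide 11, against 251.6 to 281.5 CPM in the other 3. Qdpr was 259.2 CPM in calorie-restricted 52, against 322.1 to 326.3 CPM in the other 3 calorie-restricted libraries.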

How the results depend on the processing

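All calls for Tat, Hpd and Hgd kept their direction and passed under all 25 alternatives, with adjusted p of at most 0.0249 when libraries were left out, and of 1050 recomputed member fold changes 992 kept direction and side of the threshold. Pcbd1 was less stable: the member lower in Dicretin against calorie restriction was 0 without Dicretin 14 or calorie-restricted 8 (range 0 to 1 over left-out libraries), and in Dicretin against Semaglutide it was 0 with only the 2 groups compared (adjusted p = 0.0629) and with Semaglutide 11 and Dicretin 14 left out together, and 1 without any single library. The cause was not tested. The 47 reversed signs were all of values that did not pass.

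In Semaglutide against saline, DESeq2 size factors, DESeq2's Wald test, no filter and removal of the 20 most abundant genes gave Gstz1 0.0012, 0.0012, 0.0071 and 0.0051 and Pcbd1 0.011, 0.011, 0.017 and 0.015, and the 1 CPM filter gave Pcbd1 0.0079. No filter and removal of the 20 genes gave Qdpr 0.0029 and 0.0012. Over left-out libraries, Semaglutide 11 and Dicretin 14 together included, Semaglutide against saline ranged over -0.18 to 0.076 for Gstz1, -0.28 to 0.11 for Pcbd1 and -0.35 to 0.10 for Qdpr. Likewise Hpd ranged over -0.12 to 0.056 in calorie restriction against saline, and Gstz1 over -0.18 to 0.11 in Dicretin against calorie restriction and -0.39 to 0.065 against Semaglutide. In Semaglutide against calorie restriction, Hpd ranged over -0.12 to 0.0094, Fah -0.083 to 0.077, Pcbd1 -0.18 to 0.19 and Qdpr -0.23 to 0.21.

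The number of genes called overall was 539 for Semaglutide against saline (982 with the Wald test, 256 to 778 over left-out libraries). It was 972 for calorie restriction against saline (1528 with the Wald test, 2586 with only the 2 groups, 502 to 1880 over left-out libraries). It was 790 for Semaglutide against calorie restriction (1291 with the Wald test, 445 to 1167 over left-out libraries) and 4128 for Dicretin against Semaglutide (2726 with only the 2 groups). Leaving out a library made the smallest adjusted p of a step ratio 0.122 by the exact permutation test. A smaller group raises the smallest p this test can give, so fewer differences reached 0.0286, and the value reflects group size. No paired analysis was possible because the animal numbers of the groups do not overlap. The lowest count of any member in any library was 2335 reads, and with 4 animals a group the Fah difference of -0.33 in Dicretin against saline did not pass.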
